A study of Mus musculus with 48 samples.

Results

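G6PDX, PGD, RPIA, TKT and TALDO1 are 5 enzymes of the pentose phosphate pathway, and IDH1 is the cytosolic NADP-dependent isocitrate dehydrogenase. Their genes were followed in 3T3-L1 cells treated to become fat cells, under control siRNA or siRNA against PPARγ. The genes were chosen by name from this pathway and from the supply of NADPH in the cytosol, with earlier results of these data known. Of the 7 genes so named, 6 were found among the 18991 gene symbols of the array, on 7 of its 24613 probes. The cytosolic malic enzyme was not analysed here. All 6 genes had a lower signal in the PPARγ knock down (KD) over days −2 to 6, and again over days 4 to 6, the late phase of differentiation. Of all probes, 6.74% were called lower over days −2 to 6 and 3.77% over days 4 to 6. PGLS and RPE, pathway enzymes outside the chosen set, were not called, with log2 differences of −0.05 and 0.30 over days −2 to 6. TALDO1 was 2.42-fold lower over days 4 to 6, and the other 5 genes were between 1.27-fold and 1.53-fold lower. With any 1 replicate left out, TALDO1 alone stayed called over days 4 to 6. Over days −2 to 6, TKT kept its call in 5 of 12 alternative analyses.

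NADPH carries the electrons that fatty acid synthesis, sterol synthesis and the glutathione and thioredoxin systems consume. In the oxidative branch of the pentose phosphate pathway, G6PDX and PGD each reduce NADP to NADPH while glucose 6-phosphate is turned into a pentose phosphate. In the non-oxidative branch, RPIA interconverts pentose phosphates, and TKT and TALDO1 carry carbon units between sugars, so that pentose returns to glycolysis or is made from it. IDH1 makes NADPH outside the pathway, from isocitrate in the cytosol. Fat cells that make fatty acids from glucose are known for a high demand for NADPH.

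3T3-L1 is an established line of mouse fibroblasts that can be differentiated into adipocytes. Cells of both groups were transfected before differentiation with 50 nM of siRNA, either a pool against PPARγ or a pool without a target, and then received the same treatment: 0.5 mM IBMX and 0.25 µM dexamethasone at confluence for 48 h, then 5 µg/ml insulin and 1 µM rosiglitazone for 48 h from day 0. Rosiglitazone is itself a ligand of PPARγ, and it was given to both groups. RNA was taken on day −2 and on days 0 to 6 in 3 biological replicates, which gave 16 groups of 3 and 48 Illumina arrays. Each arm rested on 1 siRNA pool, so that an effect of the pool on other transcripts cannot be told apart from one of PPARγ. Because RNA came from whole cultures, fewer cells of a type and less RNA per cell cannot be told apart either.

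Pparg itself was the check of the knock down. Its brightest probe lay 2.34 log2 units lower in the PPARγ KD over all days (SE 0.04, limma with Bonferroni adjustment, adjusted p = 9.51e-34). Pairing each KD array with the control array of its day and number, it was lower in 24 of 24 pairs. On each array, 33.4% to 40.4% of the probes were above background, called at a detection p under 0.01. Shares and medians of all probes therefore include many probes at background, whereas the brightest probe of each of the 6 genes was above it on all 48 arrays. Replicate 3 stood apart: its arrays had 33.4% to 35.4% of their probes above background, and those of replicates 1 and 2 had 36.8% to 40.4%. Each member's difference is therefore also given within each replicate.

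The letters upstream of TALDO1, PGD and G6PDX are shown because TALDO1 had the largest difference and because PGD and G6PDX had the most similar time courses of the 6 genes. Each is the 250 bases before the annotated start in RefSeq's mouse assembly GRCm38.p6, and all 6 genes were found in that table. Searched motifs are in capitals. They were the GC box GGGCGG, the CCAAT box CCAAT, the E-box CACGTG, the TATA box TATAAA, the antioxidant response element TGACNNNGC, the nuclear receptor site AGGTCA and its direct repeat with 1 base between (DR1), each on both strands.
TALDO1, chr7:141391910-141392159, plus strand: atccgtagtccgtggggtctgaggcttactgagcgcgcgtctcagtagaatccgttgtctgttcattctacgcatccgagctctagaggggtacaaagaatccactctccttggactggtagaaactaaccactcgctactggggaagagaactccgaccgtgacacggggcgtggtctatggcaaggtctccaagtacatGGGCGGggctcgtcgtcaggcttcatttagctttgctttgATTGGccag
PGD, chr4:149166706-149166955, minus strand: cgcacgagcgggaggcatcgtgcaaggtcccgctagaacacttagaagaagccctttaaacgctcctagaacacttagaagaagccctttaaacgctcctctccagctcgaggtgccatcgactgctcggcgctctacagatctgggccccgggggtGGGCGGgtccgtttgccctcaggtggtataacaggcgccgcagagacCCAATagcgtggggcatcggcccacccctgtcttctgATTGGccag
G6PDX, chrX:74428881-74429130, minus strand: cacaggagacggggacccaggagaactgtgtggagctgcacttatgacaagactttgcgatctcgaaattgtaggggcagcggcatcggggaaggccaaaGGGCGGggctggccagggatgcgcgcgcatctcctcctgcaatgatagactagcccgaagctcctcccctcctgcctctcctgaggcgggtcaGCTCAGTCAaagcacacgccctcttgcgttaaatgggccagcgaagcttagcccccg

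A GC box stood in at least 1 window of each of the 6 genes. Of all 32851 promoter windows searched, 32.7% held one. TALDO1 and PGD each held a CCAAT box on the reverse strand with its first base 9 bases before the start, and PGD held another on the forward strand. IDH1 held 1 as well, in a window at chr1:65186480-65186729. CCAAT was present in 33.8% of windows. G6PDX alone of the 6 held the antioxidant response element, the site of the oxidative stress factor NFE2L2, which 10.2% of windows held. TKT (chr14:30548881-30549130) held 3 GC boxes, the last pair overlapping by 1 base, and RPIA (chr6:70792176-70792425) held 1. None of the 6 windows held AGGTCA (14% of all windows), DR1 (0.0335%), the E-box (6.02%) or the TATA box (12.4%), which says only that these letters are not in these 250 bases. PGD and IDH1 each have another annotated start, and its window held no AGGTCA either. The other window of PGD held no GC box and no CCAAT box, and that of IDH1 held a GC box and no CCAAT box.

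TALDO1, transaldolase, rose steeply under control siRNA. Its scaled signal, the background-corrected bead intensity after scaling of the arrays, was 2757, 2557 and 2912 in replicates 1 to 3 on day −2 and 3190, 3077 and 3861 on day 0. It reached 6117, 6217 and 7215 on day 1 and 10940, 9374 and 11462 on day 2, the day with its highest mean. It then stayed at 7147 to 10056 from day 3 to day 6.

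In the PPARγ KD, TALDO1 rose less. The signal was 3572, 3546 and 4369 on day −2, 3197, 3424 and 3620 on day 0, then 4568, 4430 and 5139 on day 2. On day 6 it was 3190, 3360 and 4192, against 8556, 7728 and 10056 under control siRNA. On every day from 1 to 6 all 3 KD arrays lay below all 3 control arrays, whereas on day −2 all 3 lay above them. The share of all probes with separate groups was counted for day 6 alone, where 6.67% had the KD lower. For the other days, here and in the paragraphs below, separate groups have no such share beside them and are a description only.

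RPIA, ribose 5-phosphate isomerase, showed a sharp maximum on day 2. Under control siRNA its scaled signal was 684, 620 and 586 on day −2, 2424, 2248 and 1868 on day 2, then 1131, 1096 and 965 on day 6. In the PPARγ KD the same days gave 704, 687 and 620, then 1169, 1273 and 1071, then 657, 712 and 650. The groups overlapped on days −2 and 0 and were separate, with the KD lower, on every day from 1 to 6.

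G6PDX, glucose 6-phosphate dehydrogenase, catalyses the committed step of the pathway. Under control siRNA its scaled signal went from 604, 596 and 514 on day −2 to 1280, 1559 and 1396 on day 2, and stood at 798, 1060 and 1054 on day 6. In the PPARγ KD it was 794, 767 and 619 on day −2, 993, 932 and 808 on day 2, then 678, 675 and 638 on day 6. On day 1 both groups were high and overlapped, at 1289 to 1393 under control siRNA and 1237 to 1316 in the KD.

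PGD, 6-phosphogluconate dehydrogenase, makes the second NADPH of the oxidative branch and followed a similar course. Under control siRNA its mean was highest on day 1, whereas that of G6PDX was highest on day 2. Its control values were 5769, 5761 and 6269 on day −2, 15390, 13988 and 16788 on day 1, then 10358, 8818 and 11487 on day 6. The KD values were 7168, 7131 and 6438 on day −2, 13848, 14439 and 12909 on day 1, then 7668, 7961 and 7724 on day 6. For G6PDX and PGD alike, the KD lay above control on all 3 arrays on day −2, overlapped with it on day 1, and lay below it on day 0 and on days 2 to 6.

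IDH1, which stands outside the pathway, overlapped between the groups on day −2 alone. Its control values were 3406, 3538 and 3603 on day −2, 6619, 6703 and 6948 on day 0, then 5536, 5798 and 5544 on day 6. Its KD values were 3420, 3612 and 3178 on day −2, 4262, 4867 and 5800 on day 0, then 4105, 4181 and 4020 on day 6. From day 0 on, every KD array of IDH1 lay below every control array of the same day.

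TKT, transketolase, moved least. Its control values were 13039, 13484 and 16632 on day −2 and 19126, 17240 and 21294 on day 6. Its KD values were 15326, 15158 and 16938 on day −2 and 14454, 13780 and 16371 on day 6. The groups overlapped on every day up to day 4 and were separate, with the KD lower, on days 5 and 6. A dimmer TKT probe was above background on 8 of 48 arrays and showed no call over days −2 to 6 (log2 difference −0.08, adjusted p = 1).

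**Figure D1:**
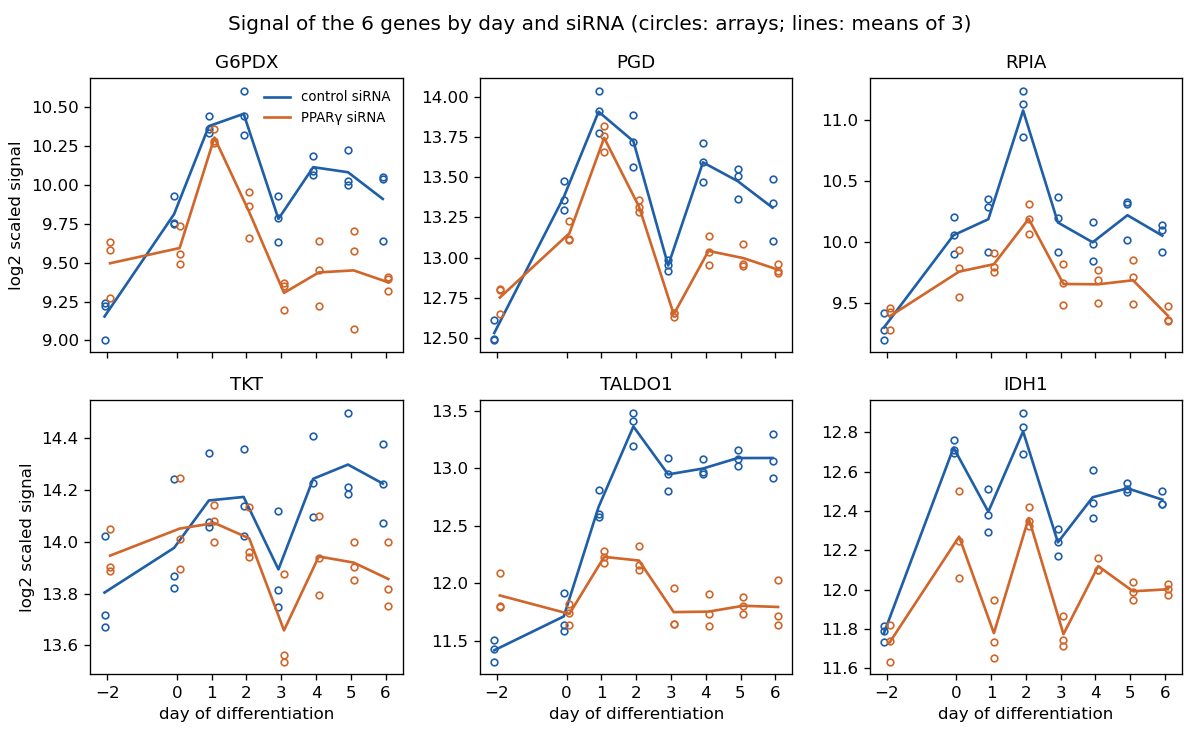
Log2 scaled signal (vertical axis) against day of differentiation (horizontal axis) for the 6 genes; circles are single arrays, lines join the means of 3 arrays, blue is control siRNA and orange PPARγ siRNA. TALDO1 climbs to day 2 in blue far above the orange line, and from day 2 on the orange line lies below the blue line in all 6 panels. For G6PDX and PGD the circles of the 2 groups overlap on day 1.

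The first comparison asked whether PPARγ siRNA changed these genes over the whole course. Over days −2 to 6, all 6 genes were lower in the PPARγ KD (limma with the replicate number as a block, Bonferroni adjustment over 24613 probes, call at an adjusted p of at most 0.05). Of all probes, 6.74% were called lower in this comparison. TALDO1 differed most, by −0.77 log2 units (SE 0.03, adjusted p = 2.01e-22, 1.70-fold lower). RPIA followed at −0.44 (SE 0.03, adjusted p = 1.09e-11) and IDH1 at −0.42 (SE 0.03, adjusted p = 1.06e-12). G6PDX differed by −0.36 (SE 0.04, adjusted p = 3.36e-06), PGD by −0.29 (SE 0.03, adjusted p = 8.63e-07) and TKT by −0.16 (SE 0.02, adjusted p = 6.55e-04). The median of the 6 was −0.39, and the median of all probes was −0.03.

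Within single replicates these differences kept their sign. TALDO1 gave −0.83, −0.72 and −0.74 in replicates 1, 2 and 3, RPIA −0.53, −0.43 and −0.36, and IDH1 −0.43, −0.45 and −0.38. G6PDX gave −0.32, −0.29 and −0.48, PGD −0.29, −0.18 and −0.39, and TKT −0.12, −0.14 and −0.23. The SD between the 3 replicates ran from 0.04 for IDH1 to 0.10 for G6PDX and 0.11 for PGD. Apart from a replicate term, the fit treats all arrays as independent. Its SEs and p-values therefore do not measure the spread of the effect between replicates. The KD array was the lower of its pair in 22 of 24 pairs for IDH1, 21 for G6PDX and RPIA, 20 for PGD, 19 for TALDO1 and 17 for TKT. No share of all probes was counted for pairs, here or below, so that such counts are a description only. Some of the smaller effects lost their call with 1 replicate left out: TKT was not called without any 1 of them (adjusted p from 0.258 to 1), PGD not without replicate 1 (0.0556) and G6PDX not without replicate 3 (0.101), while TALDO1, RPIA and IDH1 were called each time.

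Over days 4 to 6, fitted on their own 18 arrays, all 6 genes were lower too, where 3.77% of all probes were called lower. TALDO1 differed by −1.28 log2 units (SE 0.05, adjusted p = 3.74e-10, 2.42-fold lower), and 227 of the 24613 probes had a lower value. G6PDX, the entry enzyme, differed by −0.62 (SE 0.08, adjusted p = 0.0152, 1.53-fold) and PGD by −0.47 (SE 0.06, adjusted p = 0.00693, 1.39-fold). RPIA differed by −0.51 (SE 0.05, adjusted p = 1.99e-04), IDH1 by −0.44 (SE 0.05, adjusted p = 5.52e-04) and TKT by −0.35 (SE 0.04, adjusted p = 0.00805). Each of the 6 was lower in the KD in all 9 pairs of arrays of these days, a description without a share of all probes beside it. Within replicates 1, 2 and 3, TALDO1 gave −1.35, −1.27 and −1.20 and G6PDX −0.48, −0.53 and −0.84. The median of the 6 was −0.49, against −0.01 over all probes. With fewer arrays the call narrowed to TALDO1: leaving out any 1 replicate left TALDO1 alone called, and without the replicate block TALDO1 and IDH1 were called. All 6 values stayed below 0 in each of the 12 alternatives run.

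On day −2, after transfection and before the cocktail, 5 of the 6 genes had a positive difference, as had 54.5% of all probes, and TALDO1 alone was called higher in the KD (0.48, SE 0.08, adjusted p = 0.00660), where 0.187% of all probes were called higher. That call rested on all 3 replicates: with any 1 left out, without the block, with a block for each day, or with the arrays scaled by their medians, TALDO1 was not called on day −2. On day 0 IDH1 alone was called lower (−0.45, SE 0.08, adjusted p = 0.0497), against 1.37% of probes, and IDH1 (−0.62) and TALDO1 (−0.43) were called on day 1, against 1.49%.

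From day 2 on, all 6 differences were negative on every day, while the share of all probes below 0 went from 70.8% on day 2 to 38.2% on day 6. RPIA (−0.89, SE 0.09, adjusted p = 1.77e-07) and TALDO1 (−1.17, SE 0.08, adjusted p = 3.01e-13) were called lower on day 2, when 4.18% of all probes were. IDH1 (−0.47) and TALDO1 (−1.20) were called lower on day 3, against 2.29%. The median over all probes was itself −0.12 on day 2 and −0.10 on day 3. After quantile normalization it was −0.0015 and 0.014. Over the 10567 probes above background on at least 3 arrays, with the scaling unchanged, it was 0.03 on both days. G6PDX (−0.68, adjusted p = 0.0290), PGD (−0.55, adjusted p = 0.00623) and TALDO1 (−1.24) were called lower on day 4, against 2.13%.

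On day 5, IDH1 (−0.52), RPIA (−0.54), TALDO1 (−1.28) and TKT (−0.38) were called lower, against 2.68% of probes. Day 6 gave IDH1 (−0.46), RPIA (−0.66) and TALDO1 (−1.30), against 3.09%. TALDO1 was thus called lower on each of the 6 days from 1 to 6, IDH1 on 5 days, RPIA on 3 and G6PDX, PGD and TKT on 1 each. Of these calls, those of TALDO1 on days 2 to 6 and of RPIA on day 2 stood in all 12 alternatives. The other calls of single days were lost in some: TALDO1 on day 1, IDH1 on days 3 and 6 and TKT on day 5 were called in 3 of 12, RPIA on day 5 in 4, and the rest in 6 to 9. Leaving out 1 replicate lowered the 18 calls of single days to 6 without replicate 1, 6 without replicate 2 and 9 without replicate 3, and a replicate block by day to 8. On day 6 the 3 KD arrays lay below the 3 control arrays for all 6 genes, which held for 6.67% of all probes.

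**Figure D2:**
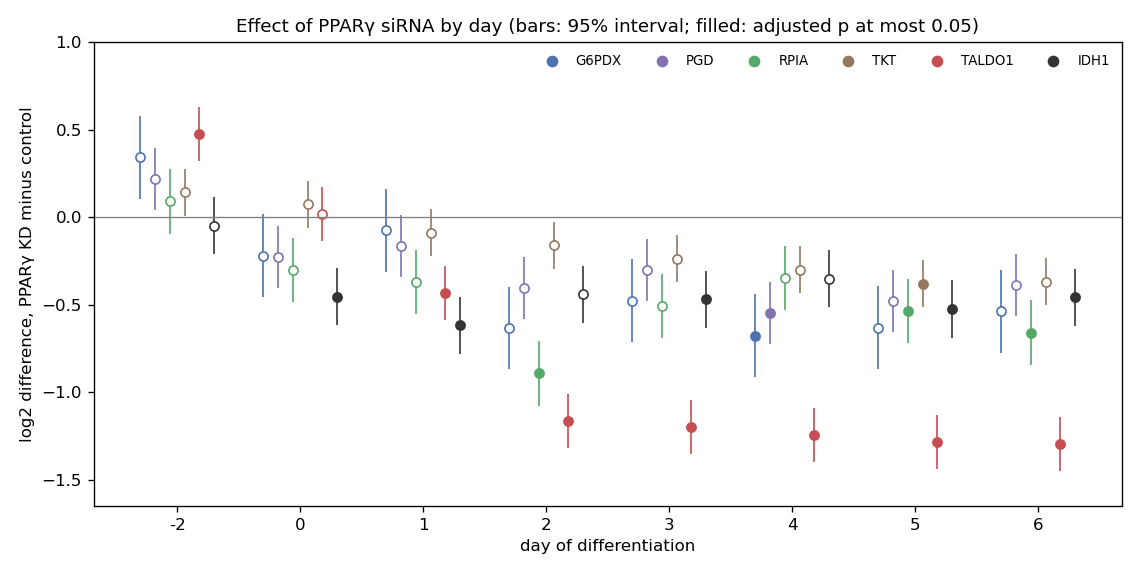
Log2 difference, PPARγ KD minus control siRNA (vertical axis), by day (horizontal axis) for each gene, with 95% intervals from the limma fit; filled circles have an adjusted p of at most 0.05. TALDO1 goes from 0.48 on day −2 to −1.17 on day 2 and then stays near −1.2 to −1.3, and the other genes lie between −0.16 and −0.89 from day 2 on.

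Whether the effect itself differed between late days (4 to 6) and early days (0 to 2) was tested as a contrast of effects. Only TALDO1 was called among the 6, its late effect lying below its early one (−0.75 log2 units, SE 0.06, adjusted p = 5.24e-10), where 2.82% of all probes were called in that direction. TKT gave −0.29 (SE 0.05, adjusted p = 0.101), G6PDX −0.31 and PGD −0.21. RPIA at 0.01 (95% interval −0.14 to 0.16) and IDH1 at 0.06 (−0.07 to 0.19) were the 2 genes whose early and late effects lay closest together.

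Over time, all 6 genes changed under control siRNA (limma F-test over the 8 days, Bonferroni adjustment), where 23.5% of all probes were called. TALDO1 had the largest F value of the 6, 173 (adjusted p = 5.95e-22), and TKT the smallest, 15.0 (adjusted p = 1.02e-04). In the PPARγ KD, 5 of the 6 changed over time, where 16.5% of all probes were called, with PGD first (F = 30.9, adjusted p = 3.06e-09). TKT was not called there (F = 7.95, adjusted p = 0.173). The F value of TALDO1 was 14.3 in the KD (adjusted p = 1.92e-04). Without any 1 replicate, 1 or 2 of the 6 were called over time in the KD.

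The time course was split at the treatments. From day −2 to day 0, the step with dexamethasone and IBMX, 4 of the 6 genes rose under control siRNA, against 4.01% of all probes: IDH1 by 0.94 log2 units (1.92-fold), PGD by 0.84, RPIA by 0.76 and G6PDX by 0.66. TALDO1 changed by 0.29 and TKT by 0.17, neither called. The rise of G6PDX was called in 6 of 11 alternatives. In the PPARγ KD, IDH1 alone was called (0.54, adjusted p = 0.00176), against 3.36% of probes rising, and it stayed called in 7 of 11 alternatives. PGD (0.40) and RPIA (0.37) also had positive changes in the KD, both with an adjusted p of 1, as had TKT and G6PDX (0.10 each), while TALDO1 gave −0.16.

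The difference of this step between siRNAs was called for 0 of the 6 genes, against 0.662% of all probes called in either direction (limma, Bonferroni). At an unadjusted p under 0.05, 5 of the 6 had a lower change in the KD, all but TKT, with differences of −0.39 to −0.56, where 4.58% of all probes passed in that direction. With Benjamini-Hochberg adjustment, 3 of the 6 were called, against 1.32% of probes.

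From day 0 to day 2, with insulin and rosiglitazone, TALDO1 rose 3.14-fold (1.65 log2 units, SE 0.08, adjusted p = 2.66e-18) and RPIA 2.04-fold (1.03, SE 0.09, adjusted p = 3.46e-09) under control siRNA, where 6.55% of all probes rose. In the KD, TALDO1 rose 1.38-fold (0.46, SE 0.08, adjusted p = 0.0112), where 3.1% of probes rose, and that call was lost without any 1 replicate. RPIA changed by 0.43 in the KD (adjusted p = 0.677). The step was smaller in the KD for TALDO1 (difference −1.19 log2 units, SE 0.11, adjusted p = 6.83e-09), the only one of the 6 called for that difference, where 1.75% of probes were called in that direction and the median of all probes was −0.19. With probes above background on fewer than 3 arrays left out, that median was 0.02. RPIA gave −0.59 (SE 0.13, unadjusted p = 4.62e-05, adjusted p = 1).

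From day 2 to day 6, after the 48 h with insulin and rosiglitazone, RPIA fell in both groups. It changed by −1.03 log2 units under control siRNA (SE 0.09, adjusted p = 3.13e-09), where 5.61% of all probes fell, and by −0.80 in the KD (SE 0.09, adjusted p = 3.46e-06), where 2.64% fell. No other member was called in either group. The difference between siRNAs was called for 0 of the 6, against 2.51% of probes in either direction. At an unadjusted p under 0.05 it was 1 of the 6, TKT (−0.21), against 23.7% of probes, and no member was called with Benjamini-Hochberg adjustment, against 11.8%.

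**Figure D3:**
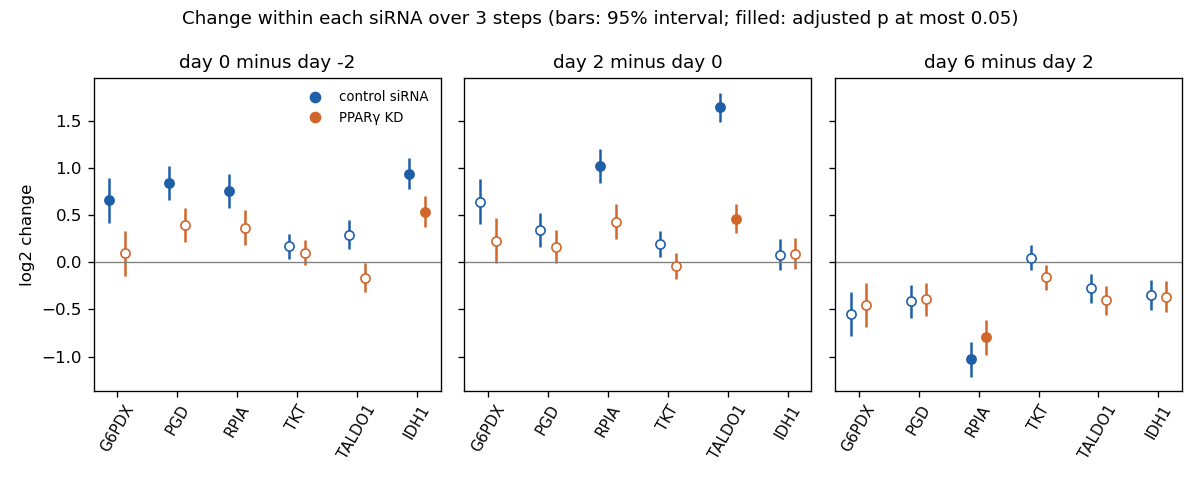
Log2 change (vertical axis) over 3 steps, one panel each, for the 6 genes (horizontal axis), under control siRNA (blue) and in the PPARγ KD (orange), with 95% intervals; filled circles have an adjusted p of at most 0.05. In the left panel 4 blue and 1 orange circles are filled, in the middle panel TALDO1 stands at 1.65 in blue and 0.46 in orange, and in the right panel RPIA alone is filled in both.

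The 6 genes did not share 1 profile. Over the 16 means of siRNA and day, the correlation between members lay between 0.60 for TKT with RPIA and 0.95 for G6PDX with PGD. These are descriptions, since all points come from the same 48 arrays. Among 7747 other genes above background on at least 24 arrays, PGD was the gene most like G6PDX and G6PDX the gene most like PGD, so that the NADPH-forming enzymes of the pathway were each other's nearest profile. IVNS1ABP (r = 0.93) and TFRC, the transferrin receptor (r = 0.93), came next for G6PDX, and HRSP12 (r = 0.92) and LOC100045697 (r = 0.87) for PGD.

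TALDO1 was most like OGDH, a subunit of the 2-oxoglutarate dehydrogenase of the citric acid cycle (r = 0.97), SLC25A10, the mitochondrial dicarboxylate carrier (r = 0.97), and TMEM33 (r = 0.97). TKT was most like SCD2, a stearoyl-CoA desaturase (r = 0.95), GPX4, a glutathione peroxidase (r = 0.87), and SOD2, the mitochondrial superoxide dismutase (r = 0.86). RPIA was most like the kinase PIM3 (r = 0.94), BAG4 (r = 0.94) and MECR, an enzyme of mitochondrial fatty acid synthesis (r = 0.94). IDH1 was most like ADIPOR2, an adiponectin receptor (r = 0.95), NDRG2 (r = 0.94) and LOC100048622 (r = 0.93). After quantile normalization, 14 of these 18 profiles were again among the 3 closest of their gene.

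Of 14 other pentose phosphate genes on the array, 9 were above background on at least 3 arrays, and the other 5 (G6PD2, TKTL1, TKTL2, PRPS1L1 and PGM1) on 0, so that a change in them could not be read. Over days −2 to 6, 3 of the 14 were called lower and 1 higher, with a list median of −0.07 that includes those 5. Of all 24613 probes, 1660 were called lower and 1567 higher over these days, which stands beside the lists below too. PRPS1, which makes phosphoribosyl pyrophosphate from ribose 5-phosphate, was lower by −0.75 log2 units (adjusted p = 1.32e-18). Its paralog PRPS2 was higher by 0.47 (adjusted p = 3.00e-08). PGM2 (−0.58), a phosphoglucomutase, and GPI1 (−0.19), which feeds glucose 6-phosphate into glycolysis, were lower. PGLS, the lactonase that acts between G6PDX and PGD, was at −0.05 (adjusted p = 1), and RPE, the epimerase beside RPIA, at 0.30 (adjusted p = 1). H6PD, which does the work of G6PDX and PGLS inside the endoplasmic reticulum, was at −0.10 over all days and −0.34 over days 4 to 6 (adjusted p = 0.114).

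Of 11 other genes of NADPH supply and of the shuttle that exports citrate, 4 were called lower and 1 higher over days −2 to 6, with a list median of −0.08. The 4 were the shuttle genes: PCX, pyruvate carboxylase (−2.02, 4.05-fold), SLC25A1, the mitochondrial citrate carrier (−0.84), MDH1, cytosolic malate dehydrogenase (−0.71), and ACLY, ATP citrate lyase (−0.29). ALDH1L2, a mitochondrial folate enzyme, was higher (0.41). IDH2, the mitochondrial counterpart of IDH1, had a difference of 0.09 (95% interval 0.02 to 0.16, adjusted p = 1), beside −0.42 (−0.48 to −0.36) for IDH1. NNT, at −0.01, was above background on 0 arrays.

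Of 12 genes whose enzymes consume NADPH, 6 were called lower over days −2 to 6 and 6 over days 4 to 6, and none higher. HSD11B1, which uses NADPH to activate glucocorticoids in the endoplasmic reticulum, was 6.14-fold lower over all days (−2.62, adjusted p = 9.87e-37). DHCR7 (−0.90) and SQLE (−0.32) of sterol synthesis, FASN, fatty acid synthase (−0.62), POR, the reductase of microsomal P450 enzymes (−0.46), and HSD17B12 of fatty acid elongation (−0.32) were the others. TXNRD1, thioredoxin reductase, was at 0.08 (adjusted p = 1).

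**Figure D4:**
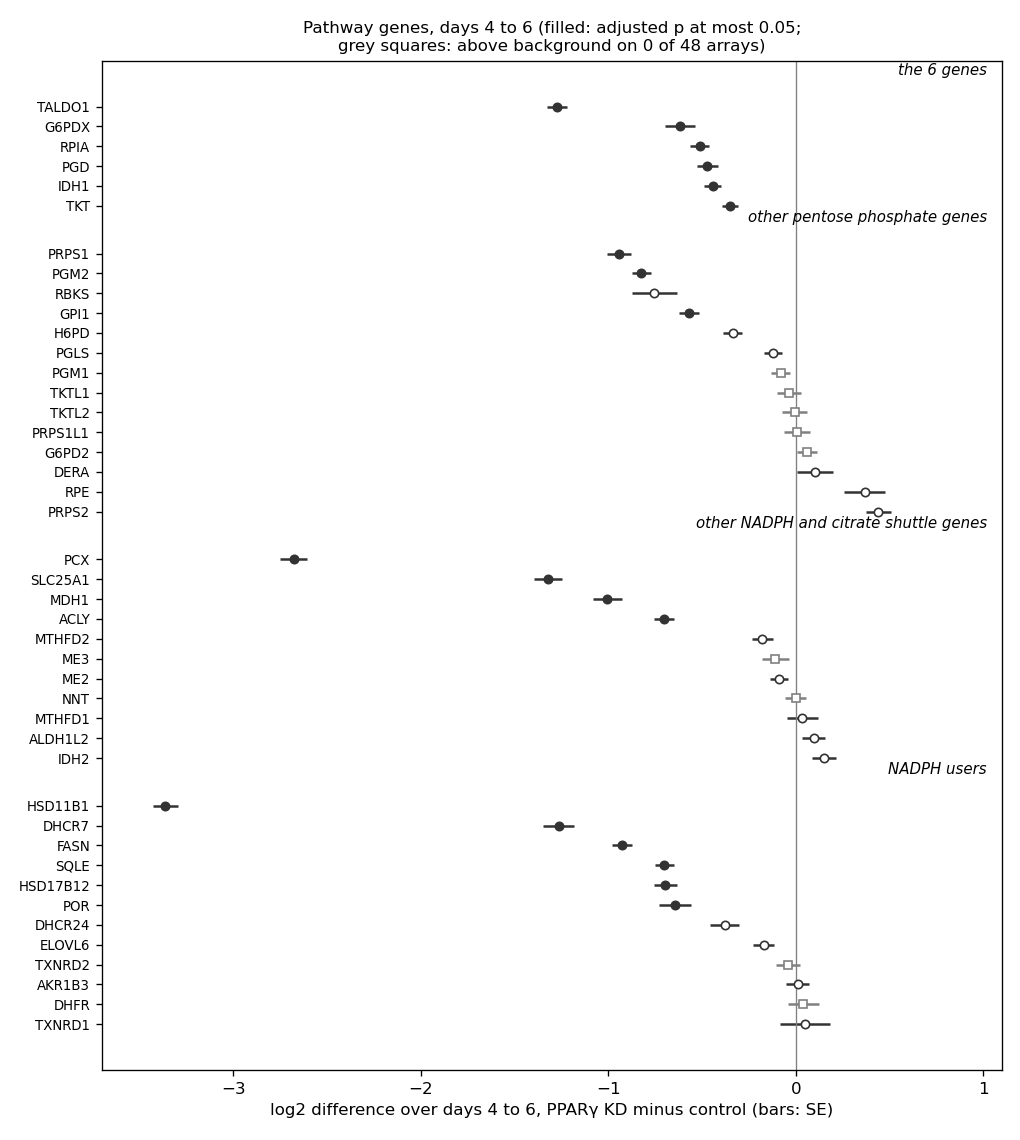
Log2 difference over days 4 to 6, PPARγ KD minus control siRNA (horizontal axis, bars are SE), for the 6 genes and 3 lists of related genes (vertical axis); filled symbols have an adjusted p of at most 0.05, and grey squares were above background on 0 of 48 arrays. All 6 genes are filled and left of 0, against 3 of 14 other pentose phosphate genes, 4 of 11 other NADPH and citrate shuttle genes and 6 of 12 NADPH users, with HSD11B1 and PCX farthest left.

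A list of regulators and of genes of the oxidative stress response was read as well. Of its 11 genes, 2 were called lower over days −2 to 6: HMOX1, heme oxygenase (−0.42, adjusted p = 2.90e-07), and GCLM, the modifier subunit of glutamate cysteine ligase (−0.31, adjusted p = 8.71e-05). Both encode enzymes or their subunits, and none of the listed transcription factors was called. NFE2L2, whose product drives many NADPH genes, was at 0.16 and its inhibitor KEAP1 at −0.09 (adjusted p = 1 for both). SREBF1 and WBSCR14, factors of lipid and glucose response, were above background on 0 of 48 arrays, and SREBF2 was at −0.01. Over days 4 to 6, 3 of the 11 were called lower, against 3.77% of all probes. They were GCLM (−0.83, limma, adjusted p = 1.28e-05), SRXN1 (−0.44, adjusted p = 0.00197) and HMOX1 (−0.40, adjusted p = 0.0242).

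Markers of other cells or states moved with the same contrast, and their part in the 6 genes' values was not tested. All 8 adipocyte markers were lower in the KD over days −2 to 6, with a list median of −2.59, and their summed scaled signal over days 3 to 6 lay between 81901 and 140876 under control siRNA and between 8554 and 32957 in the KD. Of these, CIDEC was 17.7-fold lower, while PLIN, above background on no KD array, was at least 3.74-fold lower, where the KD mean is a bound set from the dimmest signal above background. Of 6 fibroblast markers, 3 were called higher in the KD over days −2 to 6 and 0 over days 4 to 6. Their sum over days 3 to 6 lay between 75117 and 92554 under control siRNA and 78918 and 106758 in the KD. Of 8 markers of dividing cells, 3 were called higher over days −2 to 6 and 0 over days 4 to 6. Their sums over days 3 to 6 were 8645 to 14742 under control siRNA and 8774 to 17589 in the KD. Of 6 macrophage markers, CD68, EMR1, CSF1R and PTPRC were above background on 0 arrays and LYZS was higher (0.32), and of 4 muscle markers none was called and MYOD1, MYOG and DES were above background on 0 arrays.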

How the data were processed

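Expression was read on Illumina MouseRef-8 arrays. For every probe the authors deposited its mean bead intensity per array, not normalized, as BeadStudio 3.3.7 gave it, together with bead SDs, bead numbers and a detection fraction (1 minus the detection p-value). A further 192 columns (signal extremes, array numbers and array SDs) were not used. Array medians lay between 105.1 and 141.7, and the number of arrays limits the precision.

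With limma 3.58.1 (R 4.3.3), intensities were corrected by normexp using detection p-values and an offset of 16, then scaled on probes of invariant rank (factors 0.730 to 1.58), as the study's methods name that scaling. The linear model on log2 values held a mean for each of the 16 groups plus a replicate term, because those methods removed a batch effect. Bonferroni adjustment covered all 24613 probes. The brightest probe stood for its gene. Named were the 6 genes, Pparg, the 3 closest profiles of each gene, and called or extreme genes of each list. Members and lists were chosen with earlier results of these data known, and 1 gene of the NADPH-consuming list is not reported here. Replicate numbers come from the sample titles: deviations from group means correlated in all 24 same-day pairs at 0.544 to 0.914 over the 10567 probes above background on at least 3 arrays, and at 0.02 in the lowest pair over all probes. In 13 of 24 pairs an array correlated best with its own number. The fit was also run on data simulated from its own model, with independent noise on each array. That run cannot test arrays that depend on each other within a replicate. Promoter letters came from RefSeq (GRCm38.p6), and matplotlib 3.10.9 drew the figures.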

Additional observations from a re-analysis of the deposited data

Results flagged for a closer look

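TALDO1 met the condition of an effect that differs between groups in 2 contrasts, by a test of the difference itself. Its PPARγ siRNA effect was more negative on days 4 to 6 than on days 0 to 2, by −0.75 log2 units (SE 0.06, limma, adjusted p = 5.24e-10), and this was called in all 12 alternatives (adjusted p from 4.03e-12 to 0.00122). Its change from day 0 to day 2 was smaller in the KD than under control siRNA, by −1.19 log2 units (SE 0.11, limma, adjusted p = 6.83e-09), and this too was called in all 12 alternatives (adjusted p from 1.02e-10 to 0.00271). Groups held 3 arrays, so no single array was tested as an outlier.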

How the results depend on the processing

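Over days −2 to 6, TALDO1, RPIA and IDH1 were called lower in all 12 alternatives, G6PDX and PGD in 11 each and TKT in 5. Over time under control siRNA, TKT alone lost its call. Of 615 values of called results under the alternatives, 466 stayed on their side of the threshold and 149 no longer passed it, and no called value changed its sign. Over days 4 to 6, 3 of the 6 genes were called with array median scaling, 2 without the replicate block, 4 with a replicate block by day (not PGD or TKT), 5 with quantile normalization (not G6PDX), 5 with the mean of a gene's probes (not TKT), and 1 without any 1 replicate. Counted over 8 days, the 18 calls of single days became 6 with array median scaling, 8 with no replicate block, 8 with a replicate block by day and 35 with Benjamini-Hochberg adjustment, and 6 to 9 without 1 replicate. The 7 calls over the 3 steps under control siRNA became 15 with Benjamini-Hochberg adjustment, the 3 in the KD became 10, and 0 to 1 without 1 replicate, and the 1 call for the difference between siRNAs became 5. The 1 call for late minus early became 2 with quantile normalization, 2 with dim probes left out and 3 with Benjamini-Hochberg adjustment. Over time in the KD, the 5 calls became 3 with no replicate block, and 1 to 2 without 1 replicate. The cause of these shifts was not tested, beyond fewer arrays in the fit where a replicate was left out and fewer tests where dim probes were.

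The 26 values that changed sign lay between −0.13 and 0.11, and each had an adjusted p of 1. With array median scaling, TALDO1 on day 0 was −0.048, G6PDX on day 1 was 0.0046, RPIA for late minus early was −0.019, and the KD change from day −2 to day 0 was −0.012 for G6PDX and −0.0056 for TKT. With the same scaling the KD change of TKT from day 0 to day 2 was 0.11, and the differences between siRNAs were 0.0017 for PGD over that step and −0.13 for PGD and −0.051 for G6PDX from day 2 to day 6. Without background correction and with an offset of 50, TALDO1 on day 0 was −0.0042 and −0.0074, the KD change of TKT from day 0 to day 2 was 0.021 and 0.0059, and the difference for PGD from day 2 to day 6 was −0.016 and −0.00090. With the mean of a gene's probes, TKT was 0.012 for the difference from day −2 to day 0 and −0.022 for the control change from day 2 to day 6, and with quantile normalization IDH1 was −0.020 for the control change from day 0 to day 2. Leaving out 1 replicate gave −0.088 to 0.018 for IDH1 on day −2, −0.045 to 0.079 for TALDO1 on day 0, −0.034 to 0.071 for RPIA for late minus early and −0.0039 to 0.23 for the KD change of IDH1 from day 0 to day 2. It gave −0.13 to 0.14 for the difference between siRNAs of IDH1 over that step, and from day 2 to day 6 −0.042 to 0.023 for IDH1 and −0.022 to 0.067 for PGD.

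A block by BeadChip was planned and not run, since the headers read here name no BeadChip. The median of all probes on day 2 went from −0.12 to −0.0015 with quantile normalization and to −0.0084 with array median scaling. With the scaling unchanged and dim probes left out, it was 0.03.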
